A study of Rattus norvegicus with 30 samples.

Results

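Gene expression was compared between 3 rat plantaris tendons taken 7 days after tenotomy and repair, from rats dosed with GSK2894631A at 6 mg/kg, and 3 tendons from uninjured rats. The labels gave the time and dose that selected these 6 tendons out of 30 in the series. GSK2894631A inhibits hematopoietic prostaglandin D synthase (HPGDS), and each dose was given by oral gavage 2 times a day after the plantaris tendon had been cut through and sutured. All rats were young adult male Sprague Dawley rats without a genetic change, and the right tendon of each was used for RNA. Control rats had neither surgery nor the compound. Injury, repair, gavage and compound therefore cannot be told apart in the comparison with control tendons. Repaired tendons of the same day from rats given 0 mg/kg (5 tendons) or 2 mg/kg (4 tendons) were used to look for differences that go with the dose. A tendon holds all of its cells and the scar around the suture, so fewer cells of a type and less RNA per cell cannot be told apart in these values.

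The plantaris is a calf muscle, and its tendon is a cord of type I collagen fibers laid down and kept by tenocytes. After a tear, blood and bone marrow cells enter, fibroblasts divide and deposit a provisional matrix rich in fibronectin, type III collagen and tenascins, and proteases clear damaged fibers. Prostaglandins are lipid mediators made from arachidonic acid by cyclooxygenases and then by terminal synthases such as HPGDS, and they act on receptors at the cell surface.

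Counts on the 13124 genes listed came to between 20446525 and 31659102 in control tendons, and to 49909374, 12405741 and 30963782 in 7D 6 mg/kg replicates 1, 4 and 5. Levels are given as CPM, a share of each library's counts, after TMM scaling, which corrects for RNA composition, and 3 counts in a tendon equal 0.0562 to 0.245 CPM in these 6 tendons. No 2 tendons of a group agreed within sampling noise. The control tendons held skeletal muscle RNA. Sarcomere genes accounted for 18.1 to 25.4% of all counts in the uninjured group. At day 7 their share was 0.240 to 1.25% with 0 mg/kg, 0.0425 to 0.0452% with 2 mg/kg and 0.0454 to 0.0745% with 6 mg/kg. Control replicate 4 stood apart, with the highest sarcomere share and the lowest TMM factor (0.599, against 0.737 and 0.788 in control replicates 2 and 3), so counts are also given without it. Tendon markers were present in both groups: Tnmd was at 147 to 364 CPM before and 51.6 to 154 CPM after repair, and Fmod was at 772 to 3210 CPM and 443 to 650 CPM.

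Of 12558 genes tested, 6995 (55.7%) differed between 7D 6 mg/kg and control tendons, with 3555 higher and 3440 lower after repair, at a Benjamini-Hochberg adjusted p under 0.05 in edgeR's quasi-likelihood test and a change of at least 1.5-fold. These genes are called higher or lower below. Genes called higher made up 28.3% of those tested and genes called lower 27.4%, which is the background for list counts with these settings. Counts with other settings have the backgrounds given below. For 4344 genes (34.6%) all 3 repaired tendons lay above all 3 control tendons, and for 4054 (32.3%) all lay below, so that the groups did not overlap for 66.9% of genes. The median log2 fold change of all genes was 0.04. Without control replicate 4, 6341 genes were called, 3087 higher and 3254 lower, and 5939 of them were called in the same direction with it. Scaling by library size alone moved the median log2 fold change of all genes to 0.63, and the share of calls in the higher direction from 50.8% to 76.2%. With that scaling, 6206 of the 12558 genes were called higher and 1943 lower. When the log2 sarcomere share was added to the model as a covariate, 2625 genes were called, 1114 higher and 1511 lower. Of these, 2388 were called in the same direction without it. The slope of the covariate was fitted within all 7 groups, in which tendons of day 21 spanned 0.101 to 9.11%, and was carried across the gap to control tendons. No repaired tendon of day 7 had a sarcomere share near that of the control tendons, so the share and the injury cannot be told apart.

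**Figure D1:**
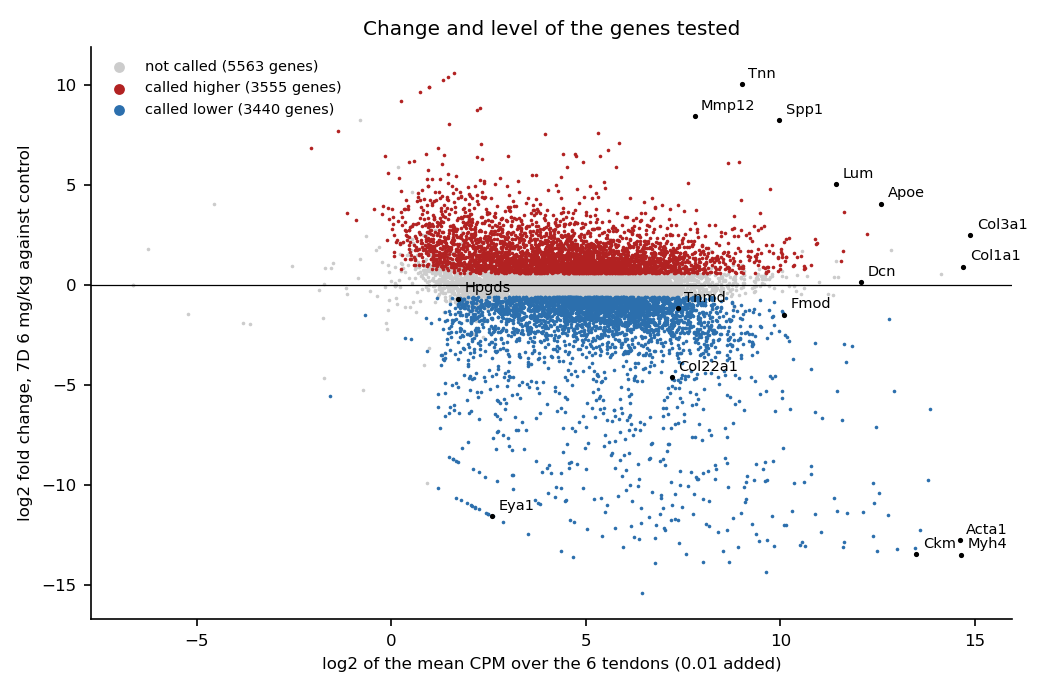
Each point is a gene, with the log2 of its mean CPM over the 6 tendons on the x axis and its log2 fold change in 7D 6 mg/kg against control tendons on the y axis. The 3555 genes called higher are red, the 3440 called lower are blue, and muscle genes such as Myh4, Acta1 and Ckm are among the largest decreases.

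Among genes that averaged 10 CPM or more after repair, the largest increase was that of Tnn, which encodes tenascin-N (tenascin-W), an extracellular matrix glycoprotein. Tnn was at 1.27, 0.601 and 1.06 CPM in control replicates 2, 3 and 4 and at 1093, 991 and 1004 CPM in 7D 6 mg/kg replicates 1, 4 and 5. The repaired tendons were close to each other and far above every control tendon, with a log2 fold change of 10.05 ± 0.68 (SE, n = 3 and 3, adjusted p = 9.38e-11).

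Proteases and macrophage products filled most of the other places among the 12 largest increases with at least 10 CPM. Spp1, the gene of osteopontin, was at 6.75, 4.89 and 8.33 CPM in control tendons and at 4844, 926 and 243 CPM in 7D 6 mg/kg replicates 1, 4 and 5. The groups did not overlap, yet replicate 1 held 20 times the level of replicate 5 (log2 fold change 8.24 ± 1.71, adjusted p = 0.000164). Mmp12, macrophage elastase, had the same order, with 990, 236 and 108 CPM against 0.708 to 1.64 CPM in control tendons (8.45 ± 1.5, adjusted p = 2.43e-05). Mmp9, a gelatinase, and Mmp13, a collagenase, rose by 7.59 ± 1.51 and 7.57 ± 1.22 on the log2 scale. The chemokine gene Ccl9 rose by 6.76 ± 1.51, the protease inhibitor gene Slpi by 6.46 ± 0.91 and Cd5l, a gene of tissue macrophages, by 6.44 ± 1.51. Msln, which encodes mesothelin, a surface protein of mesothelial cells, was at 80.2 to 153 CPM in the repaired tendons and 0.160 to 1.96 CPM in control tendons (7.09 ± 0.66, adjusted p = 4.19e-09). Prss35 (6.58 ± 0.91) and LOC100911486 (6.57 ± 0.69) were also among the 12.

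The repaired tendons also differed among themselves. Of 2711 genes called higher with a mean of at least 10 CPM, 52 varied by 3-fold or more between the 3 repaired tendons. The highest of the 3 was replicate 1 for 27 of these genes, replicate 4 for 15 and replicate 5 for 10, and the lowest was replicate 5 for 28. Replicate 1 also had the highest total count and replicate 4 the lowest, and the part of depth in this was not tested.

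Most of the 12 largest decreases were those of skeletal muscle genes. Myh4, the fast myosin heavy chain of type IIb fibers, was at 54468, 49906 and 50363 CPM in control tendons and at 4.25, 5.75 and 3.47 CPM in the repaired tendons (log2 fold change -13.50 ± 1.77, adjusted p = 4.49e-07). Ckm, the muscle creatine kinase, was at 16848 to 33673 CPM and at 1.27 to 3.41 CPM. Ppp1r3a, a glycogen-targeting phosphatase subunit of muscle, was at least 6556-fold lower, Dhrs7c at least 4149-fold lower, Smpx at least 3044-fold lower, Fsd2 at least 1763-fold lower and RGD1565323 at least 1392-fold lower, taking 3 counts in each repaired tendon as the floor. Ckmt1 and Atp2b3 had no count in any repaired tendon and were at least 405-fold and 328-fold lower. Log2 fold changes were -14.34 ± 2.42 for Ckmt2, -13.30 ± 2.19 for Ky and -13.29 ± 1.88 for Actn3, the fast-fiber actinin. All 25 sarcomere genes tested were called lower, as were all 24 genes of muscle calcium handling and energy supply, with medians of -11.35 and -10.52. Of 9 genes of satellite cells and developing muscle, 8 were called lower, among them Myf6 (at least 1788-fold) and Myod1 (at least 302-fold), which encode myogenic transcription factors. With the sarcomere share as a covariate, 12, 11 and 1 genes of these 3 lists were called lower. That covariate was computed from the counts of the sarcomere genes themselves, so the fall in their calls was fixed in advance. The tendons had been cut distal to the junction with the muscle.

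**Figure D2:**
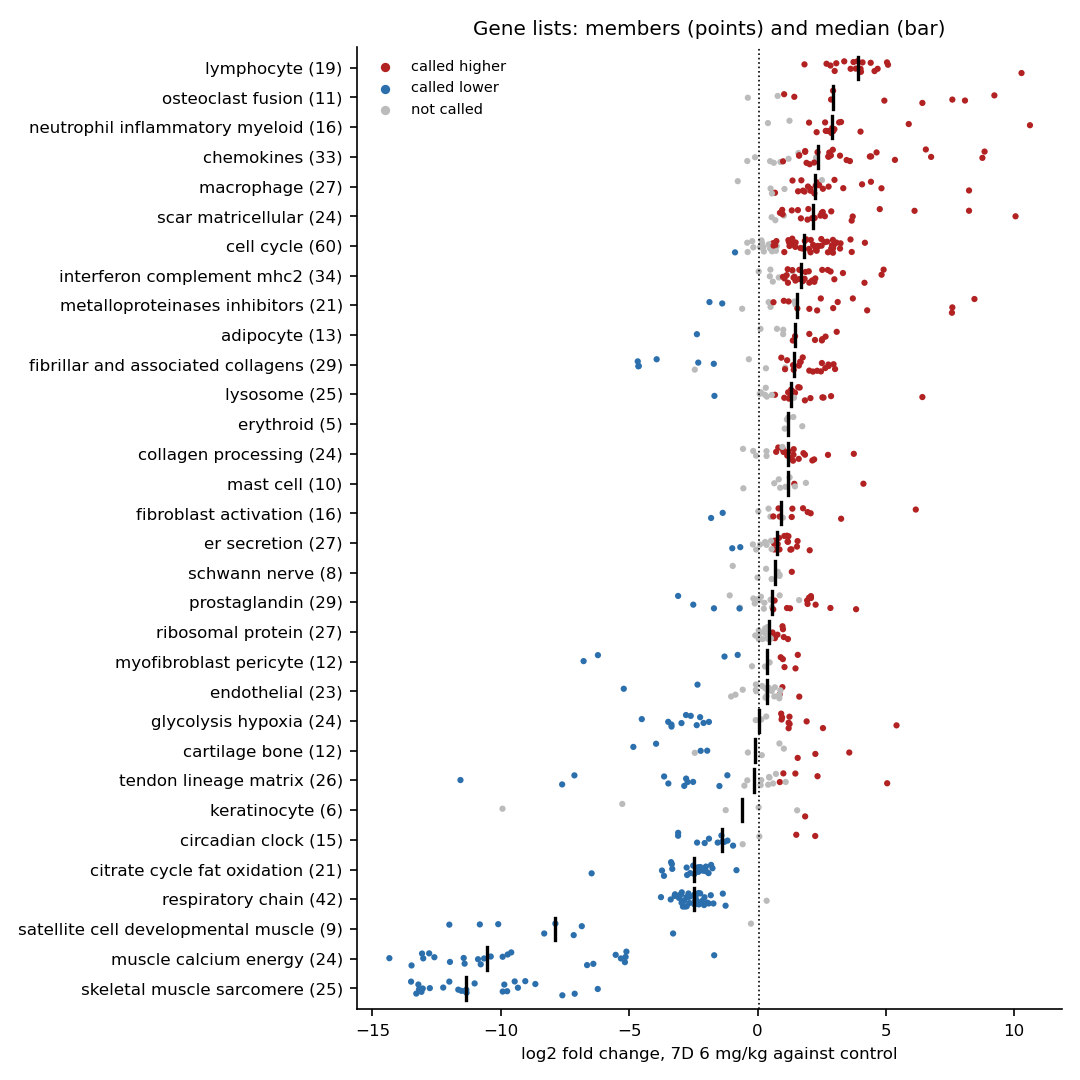
Each point is a gene of a list, placed by its log2 fold change in 7D 6 mg/kg against control tendons, and each bar is the median of a list whose number of tested genes stands in brackets. The dotted line is the median of all genes (0.04), with lymphocyte genes at the top (median 3.90) and sarcomere genes at the bottom (median -11.35).

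Genes of tendon identity moved in both directions. Of the 11 regulators on the list, 5 were called lower, among them Six2, Eya1, Mkx and Etv4, Tgif1 and Egr2 were called higher, and Scx, Egr1, Eya2 and Etv5 were not called. Scx, the transcription factor of the tendon lineage, was at 37.2, 19.0 and 25.3 CPM in control tendons and at 25.6, 53.0 and 30.6 CPM in the repaired tendons. These levels overlapped, and the log2 fold change of 0.41 ± 0.43 was within its error (adjusted p = 0.402). Mkx, which encodes the homeodomain factor Mohawk, was at 9.39, 4.89 and 2.78 CPM in control tendons and at 0.431, 1.06 and 0.943 CPM in the repaired tendons. Every repaired tendon lay below every control tendon (-2.85 ± 0.70, adjusted p = 0.000911). Eya1, a transcriptional coactivator of organ development, was at 10.5 to 13 CPM in control tendons, had no count in any repaired tendon, and was at least 96.5-fold lower. The homeobox gene Six2 was lower as well (-3.64 ± 0.54). Eya1 also acts in skeletal muscle, and genes of the muscle lists made up 24.7 to 35.6% of control counts, and the part of muscle in these decreases was not tested. Tgif1, a repressor in TGF-beta signaling, rose by 1.47 ± 0.20 and the zinc finger gene Egr2 by 2.34 ± 0.79. Egr2 was not called without control replicate 2 (1.90) or without 7D 6 mg/kg replicate 1 (1.66). With scaling by library size alone the median of the 11 regulators was 0.09 in place of -0.51. That of all genes moved as well, to 0.63 in place of 0.04.

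Among the products of mature tenocytes, the small proteoglycans parted ways. Lum, which encodes lumican, was at 274, 78.7 and 135 CPM in control tendons and at 3713, 7042 and 5408 CPM in the repaired tendons. The groups lay more than 10-fold apart, with a log2 fold change of 5.05 ± 0.40 (adjusted p = 4.64e-10). Fmod, the gene of fibromodulin, was at 3210, 869 and 772 CPM and at 443, 650 and 641 CPM, and Kera, the gene of keratocan, at 1157, 339 and 280 CPM and at 40.8, 168 and 60.6 CPM. Both were lower in every repaired tendon, with log2 fold changes of -1.48 ± 0.45 for Fmod and -2.72 ± 0.55 for Kera. Dcn, the gene of decorin, overlapped between the groups, at 2029 to 5947 CPM in control tendons and 3952 to 5010 CPM in repaired tendons (0.14 ± 0.25, adjusted p = 0.630). Tnmd, the membrane protein tenomodulin of mature tenocytes, had overlapping levels too and a log2 fold change of -1.17 ± 0.51 (adjusted p = 0.0456). Cilp and Clec3b, a cartilage intermediate layer protein and tetranectin, rose by 1.01 ± 0.29 and 0.87 ± 0.26. Over the whole list of 26 tendon genes, 5 were called higher and 11 lower, with a median of -0.14. With scaling by library size alone these were 10 and 9, and the median was 0.43. Minus that of all genes, the median was then -0.20, against -0.18 with TMM scaling. Tnmd was no longer called without control replicate 2 (-0.73), 7D 6 mg/kg replicate 1 (-0.85) or replicate 5 (-1.17, adjusted p = 0.0931), Fmod without control replicate 2 (-0.56), and Clec3b without control replicate 4 (0.54).

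Collagen genes were higher as a group, though not all of them. Of 29 tested, 19 were called higher and 6 lower, and the median log2 fold change was 1.41. Col3a1, the fibrillar collagen of early scar, was at 11412, 12298 and 3490 CPM in control tendons and at 50255, 54674 and 49827 CPM in the repaired tendons. The repaired tendons were all above the control tendons and within 10% of each other (2.51 ± 0.31, adjusted p = 2.40e-07). Col1a1, a chain of the main collagen of tendon, was at 30142, 17827 and 7360 CPM and at 40487, 30970 and 33690 CPM. Its groups did not overlap, but the lowest repaired tendon lay just above the highest control tendon (0.93 ± 0.36, adjusted p = 0.0258). Col1a1 was not called without control replicate 3 (0.92), control replicate 4 (0.51) or 7D 6 mg/kg replicate 1 (0.81). Col5a2 rose by 2.32 ± 0.34, the beaded-filament gene Col6a1 by 1.68 ± 0.33, the fibril-associated gene Col14a1 by 1.41 ± 0.36 and the basement membrane gene Col4a1 by 1.38 ± 0.30. The 6 genes called lower were Col11a2, Col24a1, Col22a1, Col9a1, Col4a3 and Col4a4. Col22a1, a collagen of the junction between muscle and tendon, was at 292, 411 and 152 CPM in control tendons and at 5.86, 0.833 and 27.4 CPM in the repaired tendons (-4.63 ± 1.16, adjusted p = 0.00107). Log2 fold changes were -4.67 ± 0.68 for Col11a2, -4.64 ± 0.74 for Col9a1 and -3.93 ± 0.52 for Col24a1. With the sarcomere share as a covariate, 8 collagen genes were called higher and 2 lower.

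Genes that modify and crosslink collagen followed the same direction, with 18 of 24 called higher and none lower (median 1.18). Lox, the lysyl oxidase that starts crosslinks, was at 55.5 to 212 CPM in control tendons and at 836 to 928 CPM in repaired tendons (2.75 ± 0.32, adjusted p = 8.96e-08). P4hb, a subunit of prolyl hydroxylase and a disulfide isomerase, rose by 1.38 ± 0.14, Ppib, a proline isomerase, by 1.61 ± 0.15, and the collagen chaperone gene Serpinh1 by 1.4 ± 0.20. Among 24 genes of the provisional and matricellular matrix, 21 were called higher and none lower, with a median of 2.17. Postn, the gene of periostin, was at 347, 895 and 149 CPM in control tendons and at 4900, 8083 and 4705 CPM in the repaired tendons (3.67 ± 0.48, adjusted p = 4.74e-07). The lowest repaired tendon held more than 5 times the level of the highest control tendon. Fn1, fibronectin, rose by 2.54 ± 0.47, Bgn, biglycan, by 2.12 ± 0.28 and Tnc, tenascin-C, by 2.45 ± 0.54. With the covariate 8 genes of collagen processing were called higher and 1 lower, and 10 of the matricellular list were called higher. The medians of these lists minus that of all genes were then 1.13 and 1.76, against 1.14 and 2.13 without the covariate.

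**Figure D3:**
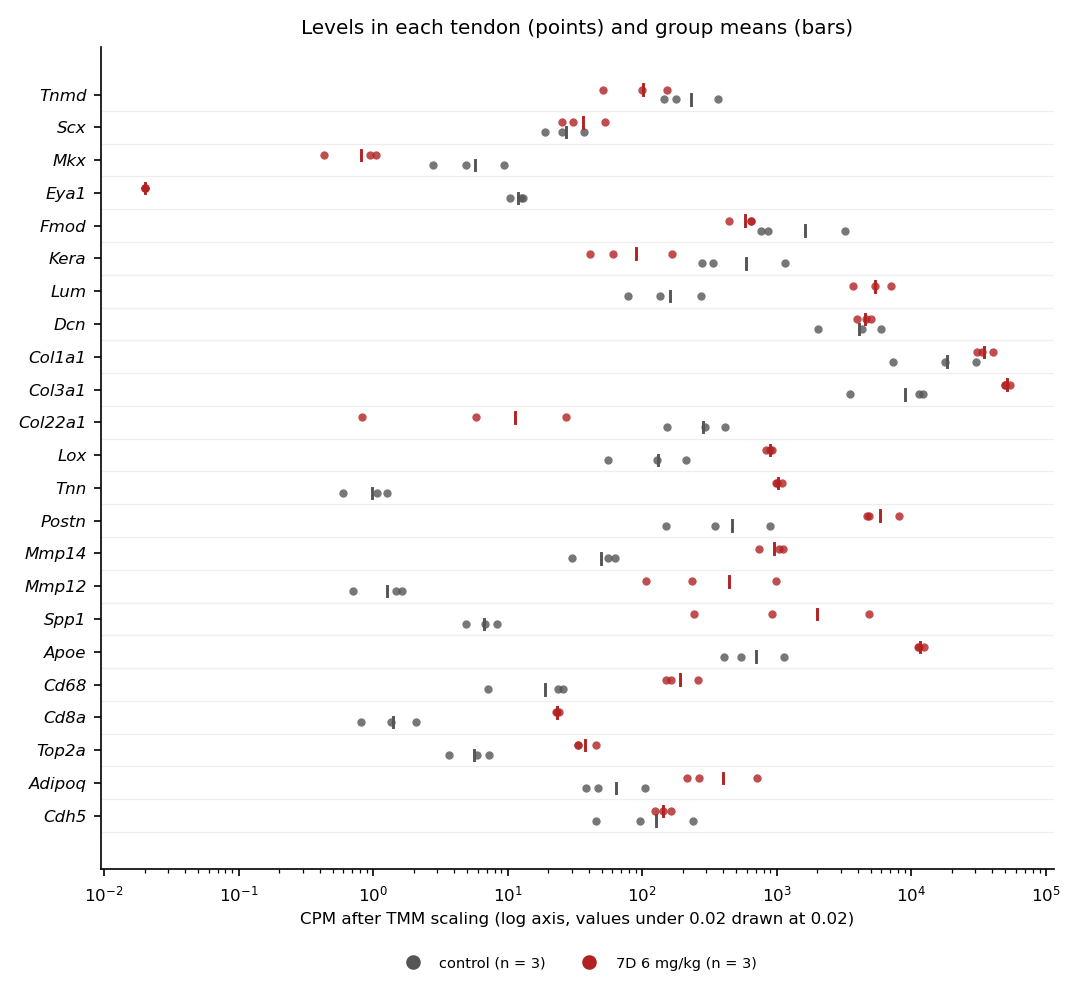
The CPM of 23 genes is plotted on a log axis for the 3 control (gray) and 3 7D 6 mg/kg tendons (red), with a bar at each group mean. Tnn and Lum are above all control tendons in every repaired tendon, Scx, Tnmd and Dcn overlap, and Spp1 and Mmp12 are spread widely among the repaired tendons.

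Of 17 metalloproteinase genes tested, 12 were called higher and 1 lower, with a median of 2.02. Mmp14, a membrane-bound collagenase, was at 56.2, 63.1 and 30.1 CPM in control tendons and at 1043, 1107 and 740 CPM in the repaired tendons (4.27 ± 0.32, adjusted p = 2.41e-10). Mmp2, a gelatinase that MMP14 activates, rose by 2.32 ± 0.26. Mmp15 was the gene called lower (-1.87 ± 0.30). Of the 4 inhibitors of these proteases, Timp1 (3.12 ± 0.33) and Timp2 (1.03 ± 0.24) were called higher and Timp4 lower (-1.38 ± 0.46). Timp4 was not called without control replicate 4 (-0.96). Mmp3, stromelysin, overlapped between the groups at 3.92 to 55.0 CPM and 50.5 to 146 CPM and was not called (1.44 ± 0.68, adjusted p = 0.0646).

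Macrophage genes were higher, with 22 of 27 called higher and none lower (median 2.22). Apoe, a lipid carrier that macrophages make in quantity, was at 406, 1136 and 548 CPM in control tendons and at 11342, 11476 and 12367 CPM in the repaired tendons. The repaired tendons were nearly alike and the groups far apart (4.07 ± 0.56, adjusted p = 8.36e-07). The pan-macrophage markers Cd68 and Adgre1 rose by 3.34 ± 0.73 and 2.77 ± 0.49, and Csf1r, the receptor for the macrophage growth factor, by 1.58 ± 0.49. Of 7 genes of resident macrophages, 4 were called higher. Stab1 rose by 1.96 ± 0.51, Folr2 by 1.71 ± 0.45 and Cd163 by 1.36 ± 0.59. Cd163 was not called without control replicate 4 (0.85), 7D 6 mg/kg replicate 1 (1.41, adjusted p = 0.0620) or replicate 5 (1.01). Of 11 genes of cell fusion and bone-type resorption, a program of osteoclasts that macrophages can share, 9 were called higher and none lower (median 2.94), including Ctsk (2.86 ± 0.44) and Acp5 (2.94 ± 0.48). With the covariate 1 macrophage gene was called higher and 1 lower, and without control replicate 4 the counts were 21 and 1.

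All 6 neutrophil genes tested were called higher, and 14 of 16 on the wider list of inflammatory myeloid genes were (median 2.89). These lists held 14 and 28 genes. Genes under 3 CPM in control tendons were tested only if a repaired group reached that level, which favors calls in the higher direction. S100a9, a calcium-binding protein of neutrophils, was at 5.95, 2.61 and 2.94 CPM in control tendons and at 14.7, 40.9 and 17.8 CPM in the repaired tendons (2.66 ± 0.85, adjusted p = 0.00790). S100a8 rose by 2.99 ± 0.76, Csf3r, the receptor for granulocyte growth factor, by 2.91 ± 0.71 and Lcn2, lipocalin-2, by 2.88 ± 0.62. Il1b, interleukin-1 beta, was at 0.327 to 4.21 CPM and 19.2 to 43.7 CPM (3.25 ± 0.66), and Il1rn, its receptor antagonist, at 0.735 to 2.29 CPM and 33.5 to 217 CPM (5.89 ± 1.51). Arg1, arginase, rose by 2.30 ± 0.42 and the pattern recognition gene Ptx3 by 3.18 ± 0.51. Of 33 chemokine and receptor genes, 25 were called higher and none lower (median 2.34). The monocyte attractants Ccl2 and Ccl7 rose by 2.86 ± 0.56 and 3.60 ± 0.65. Cxcl3 and Cxcl6, attractants of neutrophils, had at most 1 count in a control tendon and were at least 57.3-fold and 54.7-fold higher. Among receptors, Cxcr4 rose by 1.86 ± 0.53 and Ccr7, a homing receptor of dendritic cells and T cells, by 4.38 ± 0.75. With the covariate 1 gene of the myeloid list and 4 chemokine genes were called higher.

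Every lymphocyte gene tested was called higher (19 of 19, median 3.90). The list held 25 genes, and a gene was tested if any group averaged 3 CPM. A gene under that level in control tendons was thus tested only if a repaired group reached it, which favors calls in the higher direction. Cd8a, a coreceptor of cytotoxic T cells, was at 2.08, 1.36 and 0.817 CPM in control tendons and at 22.9, 24.2 and 23.5 CPM in the repaired tendons. The repaired tendons differed from each other by less than 2 CPM (4.01 ± 0.41, adjusted p = 1.57e-08). Cd3e, a chain of the T cell receptor complex, rose by 3.74 ± 0.85, and Cd2 by 3.83 ± 0.57. All 5 genes of B and plasma cells were among those called (median 5.04), and together they came to 1.63 to 3.82 CPM in control tendons. Cd4, which rat macrophages also carry, rose by 1.83 ± 0.60 but was not called without control replicate 4 (1.33). With the covariate 11 of the 19 genes were called higher, and without control replicate 4 it was 18. All 6 MHC class II genes were called higher (median 2.17), with Cd74, the invariant chain, at 195 to 438 CPM and 1061 to 1438 CPM (2.02 ± 0.36). All 14 complement genes were called higher (median 1.62), with C1s rising by 2.74 ± 0.28, C1r by 1.4 ± 0.25 and C4b by 2.85 ± 0.55. Of 14 interferon response genes 8 were called higher, led by Irf8, a transcription factor of myeloid and B cells (4.17 ± 0.45), with Irf7 at 1.63 ± 0.61 and Irf1 at 0.99 ± 0.34. Irf7 and Irf1 were not called without control replicate 2 (1.36 and 0.73), nor Irf7 without 7D 6 mg/kg replicate 1 (1.26). Without control replicate 4, 10 complement and 4 interferon response genes were called higher.

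Of 10 mast cell genes, 2 were called higher and none lower. They were Il1rl1, the interleukin-33 receptor (4.13 ± 0.74), and Kit, the stem cell factor receptor (1.43 ± 0.25), and other cell types also carry both. Cpa3, the mast cell carboxypeptidase, was at 1.70, 24.8 and 1.63 CPM in control tendons and at 49.4, 29.5 and 26.8 CPM in the repaired tendons. Control replicate 3 lay close to the repaired tendons, and the difference was not called (1.88 ± 1.14, adjusted p = 0.146). Ms4a2 (0.83 ± 0.81), Tpsb2 (0.65 ± 0.94) and Hdc (1.09 ± 0.68) had overlapping levels.

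The enzyme that the compound inhibits had a low transcript level in these tendons. Hpgds was at 7.08, 4.37 and 0.654 CPM in control replicates 2, 3 and 4 and at 2.64, 1.82 and 3.10 CPM in 7D 6 mg/kg replicates 1, 4 and 5. The groups overlapped, and control tendons alone spanned a wider range than the repaired tendons (log2 fold change -0.68 ± 0.57, adjusted p = 0.296). A transcript level says nothing about how far an inhibitor blocks the enzyme. Of 29 genes of prostaglandin and leukotriene synthesis, breakdown and sensing, 12 were called higher and 4 lower, with a median of 0.57. With scaling by library size alone these were 19 and 3, with a median of 1.09. Minus that of all genes, the median was then 0.45, against 0.52 with TMM scaling.

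At the first steps, Pla2g4a, the cytosolic phospholipase that frees arachidonic acid, and Ptgs2, the inducible cyclooxygenase, were called higher. Ptgs2 was at 1.65, 5.77 and 2.94 CPM in control tendons and at 18, 24.3 and 8.21 CPM in the repaired tendons (2.26 ± 0.48, adjusted p = 0.000196). Pla2g4a rose by 1.27 ± 0.34, but was not called when only the 2 groups were fitted (1.25) or with the covariate (0.23). Ptgs1, the constitutive cyclooxygenase, was at 19.9 to 59.1 CPM and 33.2 to 42.1 CPM and was not called (-0.16 ± 0.34), and neither was the secreted phospholipase Pla2g2a (-1.08 ± 0.93). Among terminal synthases, Ptges, the inducible PGE2 synthase, was at 3.76 to 9.42 CPM and 22.3 to 33.3 CPM (1.95 ± 0.29, adjusted p = 2.58e-06), and Tbxas1, the thromboxane synthase, rose by 1.93 ± 0.59. Ptges2, a membrane-associated PGE2 synthase, Fam213b, a PGF2-alpha synthase, and Akr1b1, an aldose reductase that also makes PGF2-alpha, were called lower, with log2 fold changes of -2.50 ± 0.29, -3.09 ± 0.40 and -0.70 ± 0.14. Akr1b1 was at -0.08 and not called with scaling by library size alone, where the median of all genes was 0.63. In control replicate 4, the tendon with the most muscle RNA, Ptges2 (120 CPM) and Fam213b (151 CPM) were highest, against 52.2 to 58.7 CPM for Ptges2 and 55.9 to 56.9 CPM for Fam213b in the other control tendons. Ptges3 (0.13 ± 0.10) and Akr1a1 (-0.11 ± 0.10) were not called.

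Breakdown and transport genes were mixed. Hpgd, the dehydrogenase that inactivates prostaglandins, was at 13.5, 5.57 and 1.96 CPM in control tendons and at 40.2, 41.6 and 71.6 CPM in the repaired tendons (2.84 ± 0.53, adjusted p = 4.86e-05). All repaired tendons were above all control tendons. Slco2a1, the prostaglandin uptake carrier, overlapped because control replicate 3 was at 44.4 CPM (1.15 ± 0.49, adjusted p = 0.0408), and it was not called without control replicate 2 (0.69), control replicate 4 (0.73), 7D 6 mg/kg replicate 4 (1.14) or replicate 5 (0.95). Ptgr2, a reductase of prostaglandin metabolites, was called lower (-1.70 ± 0.20), and Ptgr1 (0.27 ± 0.25) and the exporter Abcc4 (0.07 ± 0.23) were not called.

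Of 6 prostanoid receptors tested, 5 were called higher and none lower. The list held 7 receptors. A receptor under 3 CPM in control tendons, such as Ptger2, was tested only because a repaired group reached that level, which favors calls in the higher direction. Ptger2, a PGE2 receptor, was at 0.425, 1.04 and 0.0817 CPM in control tendons and at 9.30, 7.80 and 7.39 CPM in the repaired tendons (3.84 ± 0.84, adjusted p = 0.000295). The PGE2 receptors Ptger4 and Ptger3 rose by 2.08 ± 0.38 and 2.01 ± 0.82, Ptger1 by 0.67 ± 0.17 and Ptgfr, the PGF2-alpha receptor, by 2.08 ± 0.39. Ptgir, the prostacyclin receptor, passed the adjusted p (0.0220) but not the 1.5-fold limit (0.51 ± 0.19). Of the leukotriene genes, Lta4h, the LTA4 hydrolase, was called higher by 0.61 ± 0.12, while Alox5 (-0.02 ± 0.46), Alox5ap (0.57 ± 0.41), Ltc4s (0.25 ± 0.46), Cysltr1 (0.86 ± 0.42) and Alox15 (1.62 ± 0.96) were not called. Ptger3 was not called without control replicate 2 (1.82), control replicate 4 (1.71) or 7D 6 mg/kg replicate 1 (1.38). Once control replicate 4 was omitted, Ptger1 (0.58), Lta4h (0.57) and Akr1b1 (-0.53) fell short of 1.5-fold. Without control replicate 4, 8 genes of the 29 were called higher and 4 lower, and with the covariate 4 and 2.

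**Figure D4:**
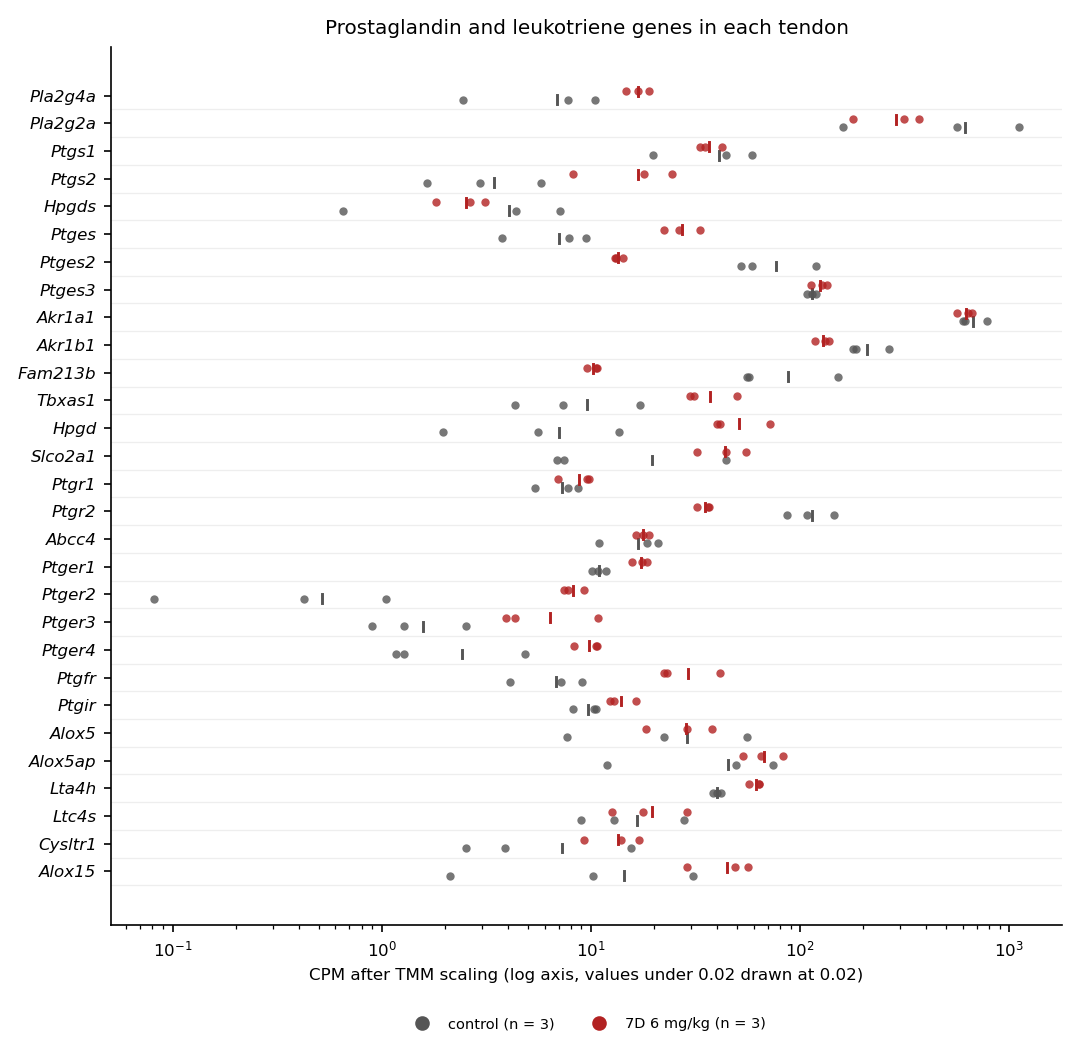
The CPM of the 29 prostaglandin and leukotriene genes is plotted on a log axis for each control (gray) and 7D 6 mg/kg tendon (red), with bars at the group means. Hpgds overlaps between the groups at a few CPM, Ptgs2, Ptges, Hpgd and Ptger2 are higher in every repaired tendon, and Ptges2, Fam213b and Ptgr2 are lower in every repaired tendon.

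Genes of cell division were higher. Of 29 mitosis genes, 27 were called higher and none lower (median 2.61), and of 25 DNA replication genes, 15 were called higher and none lower (median 1.04). Top2a, the topoisomerase of dividing cells, was at 7.31, 5.97 and 3.68 CPM in control tendons and at 33.6, 33.5 and 45.5 CPM in the repaired tendons (2.71 ± 0.37, adjusted p = 7.78e-07). Mki67, the proliferation marker, was at 8.16, 6.66 and 1.72 CPM and at 34.3, 21.1 and 30.2 CPM (2.34 ± 0.43), and Cdk1, the kinase that starts mitosis, rose by 3.07 ± 0.38. For each of these genes the repaired tendons lay above every control tendon. Among replication genes, Prim1 rose by 1.47 ± 0.28, Rfc4 by 1.25 ± 0.23 and Mcm2 by 1.23 ± 0.16. Of the cell cycle inhibitors, Cdkn1c rose by 1.84 ± 0.45 and Cdkn2c by 0.62 ± 0.23, while Cdkn1a, the p21 inhibitor, was called lower with overlapping levels (-0.88 ± 0.34, adjusted p = 0.0236). Cdkn1a was not called without control replicate 2, 7D 6 mg/kg replicate 4 or replicate 5 (-0.73 to -0.77), nor Cdkn2c without control replicate 4 (0.51) or 7D 6 mg/kg replicate 1 (0.49). With the covariate, 20 mitosis and 5 replication genes were called higher.

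The 3 called mitosis genes with the highest level are shown with the 250 bases before their start, since these genes moved together and share a promoter letter pattern. The sequences are those of RefSeq for GRCr8, 5′ to 3′ on the strand of the gene, and capitals mark CCAAT or its reverse complement, the core letters of the binding site of the factor NF-Y.
Top2a (chr10:84473094-84473343, minus strand): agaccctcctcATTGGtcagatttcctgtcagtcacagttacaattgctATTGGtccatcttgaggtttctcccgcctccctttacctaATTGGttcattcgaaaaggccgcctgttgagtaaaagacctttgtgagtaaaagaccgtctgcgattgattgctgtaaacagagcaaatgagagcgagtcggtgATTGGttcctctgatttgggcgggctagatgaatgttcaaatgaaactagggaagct
Prc1 (chr1:143659231-143659480, plus strand): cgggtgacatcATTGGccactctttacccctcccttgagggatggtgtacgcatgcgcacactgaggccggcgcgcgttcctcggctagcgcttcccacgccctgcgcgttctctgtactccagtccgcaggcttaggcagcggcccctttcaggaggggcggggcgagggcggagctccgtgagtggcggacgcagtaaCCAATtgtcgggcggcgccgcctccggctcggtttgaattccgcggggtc
Mki67 (chr1:199952594-199952843, minus strand): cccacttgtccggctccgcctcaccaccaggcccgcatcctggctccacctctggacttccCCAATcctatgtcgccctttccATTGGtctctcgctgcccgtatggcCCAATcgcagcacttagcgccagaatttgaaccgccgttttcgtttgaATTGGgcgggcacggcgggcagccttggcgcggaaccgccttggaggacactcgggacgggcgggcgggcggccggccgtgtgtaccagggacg
CCAAT was found on either strand in 17 of the 23 mitosis genes with a sequence, or 73.9%, in 13 of 21 replication genes (61.9%) and in 3348 of 9468 genes tested with a sequence (35.4%). The letters TTTGAA, known from cell cycle promoters as the core of the CHR element, were found in 10 of the 23 mitosis genes (43.5%), in 1 of the 21 replication genes (4.76%) and in 966 of the 9468 (10.2%). Both patterns stood together in 9 of the 23 mitosis genes (39.1%) and in 3.79% of all. Neither pattern contains the other, though their ends can overlap. Top2a and Mki67 held 4 CCAAT matches each and Prc1 held 2. These are matches of letters in a fixed window and not measured binding.

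Of 18 blood vessel genes, 2 were called higher and 2 lower (median 0.42). With scaling by library size alone 13 were called higher and 2 lower, where 6206 of the 12558 genes tested were called higher. Leaving out control replicate 4 gave 6 higher and 2 lower (median 0.72). Of these, Cdh5, the cadherin of endothelial junctions, was at 45.4 to 240 CPM in control tendons and 125 to 163 CPM in repaired tendons (0.18 ± 0.41). Tie1 and Tek, receptors of endothelial cells, rose by 0.97 ± 0.27 and 0.86 ± 0.32, and neither was called without control replicate 2 (0.58 and 0.46), nor Tek without 7D 6 mg/kg replicate 5 (0.80). Vegfa, the growth factor for vessels, was at 472, 391 and 754 CPM in control tendons and at 153, 88.4 and 78.6 CPM in the repaired tendons (-2.34 ± 0.34, adjusted p = 1.57e-06). It was lower in every repaired tendon and highest in the control tendon with the most muscle RNA. Pdpn, a membrane protein of lymphatic vessels, fibroblasts and macrophages, rose by 1.63 ± 0.23. Acta2 and Tagln, contractile genes of smooth muscle and myofibroblasts, rose by 1.05 ± 0.40 and 1.48 ± 0.47, with overlapping levels for Acta2. Acta2 was not called without control replicate 2 (0.68), control replicate 4 (0.97), 7D 6 mg/kg replicate 4 (0.95) or replicate 5 (0.90), nor Tagln without control replicate 2 (1.08) or 7D 6 mg/kg replicate 4 (0.95). Des and Synpo2, which striated muscle also expresses, were called lower (-6.78 ± 0.94 and -6.22 ± 1.15), and so were Lmod1 (-1.29 ± 0.32) and the pericyte gene Cspg4 (-0.77 ± 0.28). Of 16 fibroblast genes, 10 were called higher and 2 lower, with Thy1 rising by 1.95 ± 0.30 and Pdgfra by 0.86 ± 0.30, and Tgfb2 and Igf2 among the lower (-1.81 ± 0.19 and -1.36 ± 0.58). Cspg4 was not called without control replicate 3 (-0.62), 7D 6 mg/kg replicate 4 (-0.63) or replicate 5 (-0.64), Pdgfra without control replicate 4 (0.44), and Igf2 without any 1 of 5 tendons (-1.06 to -1.50), these being all but 7D 6 mg/kg replicate 5.

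Adipocyte genes were higher, with 8 of 13 called higher and 1 lower. Adipoq, adiponectin, was at 38.3, 105 and 47.4 CPM in control tendons and at 718, 216 and 265 CPM in the repaired tendons (2.65 ± 0.72, adjusted p = 0.00234). Cfd, adipsin, rose by 2.52 ± 0.54, and Plin4, a coat protein of lipid droplets in fat and muscle, was the gene called lower (-2.36 ± 0.77). Of 8 Schwann cell genes, Cnp was the 1 called (1.34 ± 0.12), and the median of the list was 0.67. Scaling by library size alone gave 5 of the 8 called higher, with a median of 1.24, where the median of all genes was 0.63. Cartilage and bone genes were mixed, with 3 of 12 called higher and 4 lower, among them Runx2, a bone and cartilage transcription factor (1.57 ± 0.36), Matn3 (3.57 ± 0.74), Sox6 (-4.84 ± 1.02), Ucma (-1.96 ± 0.67), Dmp1 (-3.95 ± 0.74) and Alpl (-2.21 ± 0.62). Ucma was not called without control replicate 2 (-0.78), 7D 6 mg/kg replicate 1 (-1.67) or replicate 4 (-1.75). With scaling by library size alone 4 genes of this list were called higher and 3 lower. Of 6 keratinocyte genes Pkp1 was called (1.85 ± 0.48), and Krt5 was at 11.3 CPM in control replicate 3 and at 0 in the other 5 tendons. None of the 5 red cell genes was called in either direction (median 1.20).

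Mitochondrial genes were lower almost without exception. Of 42 genes of the respiratory chain, 41 were called lower, and all 21 genes of the citrate cycle and fatty acid oxidation, with medians of -2.46 for both lists. The exception was Cox8a, the ubiquitous subunit 8 of complex IV, at 82.5 to 97.6 CPM in control tendons and 110 to 118 CPM in repaired tendons (0.35 ± 0.11). Atp5f1b, a subunit of ATP synthase, was at 4539, 3879 and 8573 CPM in control tendons and at 779, 712 and 694 CPM in the repaired tendons (-2.96 ± 0.35, adjusted p = 1.08e-07). Acadm, an acyl-CoA dehydrogenase, had a log2 fold change of -3.64 ± 0.49 and Cox6c, of complex IV, one of -2.45 ± 0.38. Control replicate 4, with the most muscle RNA, was the highest tendon for these 3 genes. Without it the medians were -1.86 and -2.05 and 41 and 20 genes were called lower, and with the covariate 17 and 14 were.

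Glycolysis genes split. Of 17, 7 were called higher and 9 lower. Gpi, Pgk1 and Ldha were lower (-2.79 ± 0.27, -2.60 ± 0.35 and -2.96 ± 0.36), while Hk3, a hexokinase of myeloid cells, rose by 5.41 ± 1.09, the glucose carrier gene Slc2a1 by 2.55 ± 0.86, Pfkl, the liver-type phosphofructokinase, by 1.21 ± 0.31, Pfkp by 1.25 ± 0.27, Hk1 by 0.96 ± 0.20, Pgam1 by 0.94 ± 0.36 and Aldoc by 0.92 ± 0.30. Hif1a, the oxygen-regulated transcription factor, was at 67.6 to 95.5 CPM and 280 to 357 CPM (1.91 ± 0.18, adjusted p = 3.95e-09), and Ndrg1 rose by 1.24 ± 0.48. Slc2a1 was not called without 7D 6 mg/kg replicate 1 (1.93), Pgam1 without control replicate 4 (0.69) or 7D 6 mg/kg replicate 1 (0.73), and Ndrg1 without control replicate 2 (1.14), control replicate 4 (1.05) or 7D 6 mg/kg replicate 1 (0.94). Bnip3 and Egln3, targets of that factor, were called lower (-2.37 ± 0.29 and -3.35 ± 0.65). With the covariate no glycolysis gene was called higher and 7 were called lower.

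Genes of the secretory route and of degradation were higher. Of 27 genes of folding and transport in the endoplasmic reticulum, 17 were called higher and 2 lower (median 0.74), with Pdia3, a disulfide isomerase, at 245 to 353 CPM and 685 to 710 CPM (1.19 ± 0.14), Calr, calreticulin, rising by 0.83 ± 0.14 and Canx, calnexin, by 0.65 ± 0.13. The 2 called lower were the stress response genes Atf4 (-0.67 ± 0.16) and Ddit3 (-0.98 ± 0.26). Neither was called with scaling by library size alone (-0.05 for Atf4 and -0.32 for Ddit3), where the median of all genes was 0.63. With that scaling 23 genes of the list were called higher and none lower. Omitting control replicate 4, Canx (0.50), Atf4 (-0.49) and Ddit3 (-0.44) were not called, nor Atf4 without 7D 6 mg/kg replicate 1 (-0.58). Of 25 lysosomal genes, 17 were called higher and 1 lower (median 1.31). The cathepsin genes Ctsb, Ctsl and Ctsd rose by 2.06 ± 0.28, 1.59 ± 0.21 and 0.68 ± 0.28, and Tfeb, a regulator of lysosomal genes, was the gene called lower (-1.68 ± 0.21). Ctsd was not called without control replicate 2 or 3 (0.55 for both), 7D 6 mg/kg replicate 1 (0.61) or replicate 4 (0.71). Of 27 ribosomal protein genes 8 were called higher and none lower (median 0.45), a share close to the 28.3% of all genes. With scaling by library size alone 26 were called higher, where 6206 of the 12558 genes tested were. With the covariate 10 genes of the reticulum and 3 of the lysosome were called higher.

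The clock genes keep daily time through a loop of activators and repressors. Of 15 tested, 11 were called lower and 2 higher, with a median of -1.38. Nr1d1, the repressor REV-ERB alpha, was at 262, 278 and 188 CPM in control tendons and at 58.0, 57.2 and 59.6 CPM in the repaired tendons. The repaired tendons were within 3 CPM of each other and below every control tendon (-2.06 ± 0.25, adjusted p = 1.56e-07). The output genes Dbp, Tef and Hlf had log2 fold changes of -2.35 ± 0.36, -1.89 ± 0.22 and -3.09 ± 0.49, and the period genes Per1, Per2 and Per3 of -1.29 ± 0.53, -1.17 ± 0.25 and -1.38 ± 0.24. Arntl, the gene of BMAL1, was at 8.87, 10.9 and 3.84 CPM and at 37.0, 16.7 and 14.2 CPM (1.51 ± 0.41, adjusted p = 0.00243), and Npas2, which encodes another activator of the clock, rose by 2.25 ± 0.34. Per1 was not called without control replicate 2 (-0.79), 7D 6 mg/kg replicate 1 (-0.99) or replicate 4 (-1.19). Clock itself was not called (0.07 ± 0.16). The hour at which each tendon was taken is not in the labels, so time of day and injury cannot be told apart. With the covariate 5 clock genes were called lower and 1 higher.

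Compared with repaired tendons of the same day from rats given 0 mg/kg, 7D 6 mg/kg tendons had 49 genes lower and none higher, which is 0.39% of the genes tested, and 746 genes at an unadjusted p under 0.05. Of these 49 genes, 47 were more than 100-fold lower than in control tendons and 22 were on the lists of muscle genes. Myh4 was at 3.47 to 5.75 CPM with 6 mg/kg and had a mean of 949 CPM with 0 mg/kg (log2 fold change -7.73 ± 1.41, adjusted p = 0.0173). Acta1, skeletal actin, was at 5.50 to 9.99 CPM, against a mean of 999 CPM without the compound. The tendons given 0 mg/kg were the repaired tendons with more sarcomere RNA (0.240 to 1.25% of counts). The immediate early gene Ier2, chosen after its values were seen as one of the 2 genes not so far below control (the other was Igfn1), was at 44.1 to 44.7 CPM and had a mean of 82.7 CPM with 0 mg/kg (-0.90 ± 0.18, adjusted p = 0.0216). With any 1 of the 3 tendons given 6 mg/kg left out, no gene was called.

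No gene was called between 7D 6 mg/kg and 7D 2 mg/kg tendons by edgeR's quasi-likelihood test, where the adjusted p was at least 0.0805 and 997 genes had an unadjusted p under 0.05. DESeq2 called 69 genes there, 11 higher and 58 lower. The sarcomere shares of these groups were both under 0.1%.

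Each of the 3 repaired groups was set against the same control tendons, so their values are given side by side and not correlated. Log2 fold changes against control for the 0, 2 and 6 mg/kg groups were 2.45, 2.35 and 2.51 for Col3a1, 10.18, 9.15 and 10.05 for Tnn, 3.69, 3.29 and 4.07 for Apoe, and 3.65, 2.88 and 4.01 for Cd8a. They were 2.87, 1.6 and 2.26 for Ptgs2 and -1.46, -0.59 and -0.68 for Hpgds. The direct log2 difference between 6 and 0 mg/kg was 0.78 ± 0.51 for Hpgds (adjusted p = 0.963) and -0.60 ± 0.41 for Ptgs2 (adjusted p = 0.966). List medians for the 0, 2 and 6 mg/kg groups were 2.77, 2.38 and 2.61 for mitosis genes, 1.96, 1.99 and 2.22 for macrophage genes, 3.44, 2.88 and 3.90 for lymphocyte genes, 0.27, 0.75 and 0.57 for prostaglandin and leukotriene genes and -2.50, -2.36 and -2.46 for the respiratory chain. No member of these 5 lists was called between 6 and 0 mg/kg or between 6 and 2 mg/kg.

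**Figure D5:**
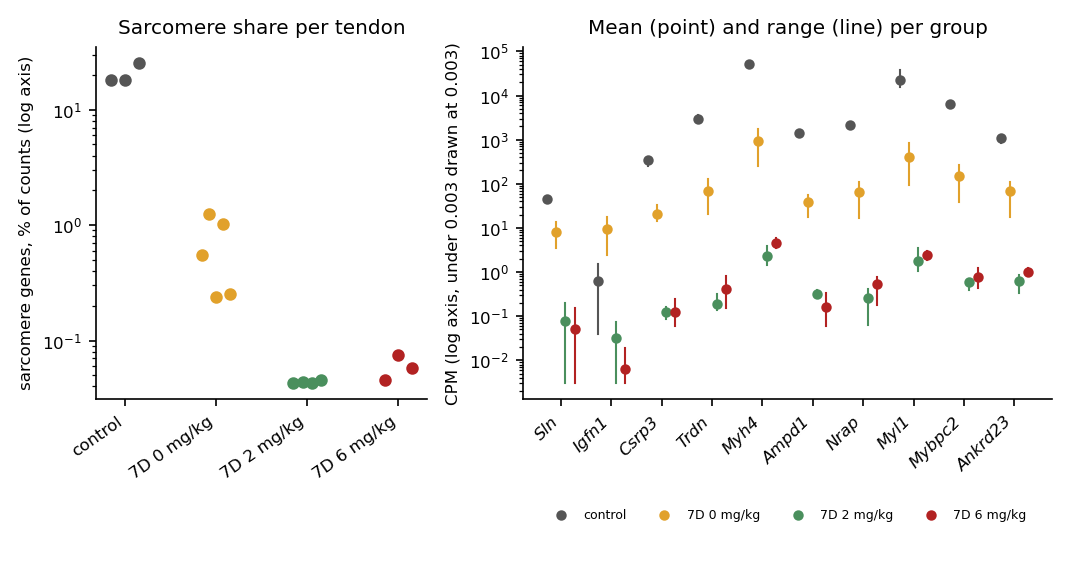
The left panel plots the percent of counts on sarcomere genes for each tendon on a log axis, and the right panel the group mean (point) and range (line) in CPM on a log axis for the 10 genes with the smallest p between 7D 6 mg/kg and 7D 0 mg/kg tendons. Both dosed groups lie together at the bottom, and the range for 6 mg/kg is below that for 0 mg/kg for each of the 10 genes.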

How the data were processed

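RNA was measured in 30 right plantaris tendons, 1 per rat, in 7 groups taken from the labels. The authors trimmed reads with fastp, aligned them with STAR to the rat genome rn6, and deposited raw counts per Ensembl gene over exons. A further deposited table holds the authors' own log2 fold changes, p-values and false discovery rates, which were not used. Its gene names and gene widths in bases came with the deposited table. No versions of these tools are given in the sources used here.

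Counts were tested with edgeR 4.0.16 (R 4.3.3) by its quasi-likelihood test with TMM scaling, with all 30 tendons in 1 model of 7 group means. Of 13124 genes listed, 12558 reached a group mean of 3 CPM and were tested, and p-values were adjusted by Benjamini-Hochberg over all of them. Genes were called at an adjusted p under 0.05, and against control tendons also at 1.5-fold. Fold changes from edgeR used its default prior count, and errors were taken as the log2 fold change over the square root of F. A prior count of 2 was used for log2 CPM values, such as those given to limma. A gene with at most 3 counts in every tendon of its lower group is given as a bound against 3 counts per tendon, which covers counting error only. The test was tested on simulated data. Alternatives used limma 3.58.1, DESeq2 1.42.0, other scalings and filters, a sarcomere share covariate and omission of single tendons.

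Named genes were the 12 largest increases and decreases without overlap and with at least 10 CPM, the 3 called genes of highest level in each list and those against its majority, all prostaglandin genes and tendon regulators, and the 10 genes of smallest p against 0 mg/kg, ties being ordered by unadjusted p. From these a selection is described, and some genes are not reported here. The members and the 32 gene lists were chosen with earlier results of these data known. Each p-value sets a difference against the spread between rats within groups, estimated over all 30 tendons, so the errors also draw on other groups. Log2 CPM differed more between control tendons (median SD 1.01 over pairs) than between 7D 6 mg/kg tendons (0.475).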

Additional observations from a re-analysis of the deposited data

Results flagged for a closer look

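The repaired tendons given 6 mg/kg differed from those given 0 mg/kg in 49 genes by edgeR's quasi-likelihood test of the difference itself, all of them lower at 6 mg/kg. The log2 differences of the 10 genes with the smallest p were -8.31 for Sln, -9.44 for Igfn1, -7.07 for Csrp3, -7.62 for Trdn, -7.73 for Myh4, -7.57 for Ampd1, -6.99 for Nrap, -7.38 for Myl1, -7.72 for Mybpc2 and -6.09 for Ankrd23. These genes belong to skeletal muscle. Igfn1 had a mean of 0.641 CPM in control tendons and 9.63 CPM with 0 mg/kg, while the others had higher means in control tendons than with 0 mg/kg. Sln and Igfn1 had at most 2 counts in any 7D 6 mg/kg tendon, so their fitted values depend on the prior count. The tendons given 2 mg/kg were as low, with Myh4 at 1.48 to 3.88 CPM, against 254 to 1722 CPM at 0 mg/kg. How much muscle each sample held beyond these levels was not tested.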

How the results depend on the processing

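The count of genes called against control (6995) stayed within 1.5 times under the other scalings, filters and tools (5839 to 8149). With any 1 tendon left out it was 6341 to 7193, and with the sarcomere share as a covariate it was 2625. No paired analysis against control was possible because each tendon came from a different rat. The control and 7D 6 mg/kg tendons share only replicate number 4. Against 0 mg/kg the 49 calls became 103 with 2 groups only, 194 by DESeq2, 153 with the replicate block, and 0 without any 1 tendon given 6 mg/kg. Against 2 mg/kg the 0 calls became 69 by DESeq2, 392 with the replicate block, and 0 to 3 without 1 tendon. The replicate block kept only tendons whose replicate number both groups share. These were numbers 1, 4 and 5 against 0 mg/kg and 4 and 5 against 2 mg/kg, so its counts rest on fewer tendons. Same-numbered tendons deviated together only weakly or in opposite directions (r of 0.101, 0.113 and 0.042 with 0 mg/kg, -0.177 and 0.238 with 2 mg/kg). So few pairs cannot decide whether same-numbered tendons share more than a number. With the covariate, list medians minus that of all genes were -1.44 for sarcomere, -1.57 for muscle calcium and energy, -1.28 for satellite cell, -1.03 for respiratory chain, -0.96 for citrate cycle, 1.56 for myofibroblast, 1.77 for inflammatory myeloid, 1.12 for chemokine, 0.53 for macrophage, 1.49 for osteoclast, 3.14 for lymphocyte, 3.55 for mast cell, 1.10 for endothelial, 0.69 for Schwann, -0.64 for cartilage and bone, 1.27 for cell cycle, 0.37 for lysosome, -0.77 for glycolysis and hypoxia, 1.16 for interferon, complement and MHC, and -0.65 for clock genes. Without control replicate 4 they were -10.73 for sarcomere, -7.26 for satellite cell, -1.88 for respiratory chain, -2.07 for citrate cycle, 3.56 for lymphocyte, 0.50 for Schwann and 1.55 for cell cycle genes. Because the covariate is made of sarcomere counts, the small median of the sarcomere list with it was fixed in advance. Of 223 genes named, 16 turned direction with the covariate, none of them called there: Timp4 (0.15), Csf1r (-0.26), Cxcr4 (-0.03), Irf1 (-0.50), Tbxas1 (-0.27), Synpo2 (1.16), Lmod1 (0.02), Igf2 (1.45), Plin4 (1.07), Sox6 (1.66), Slc2a1 (-0.86), Pfkl (-0.29), Pgam1 (-0.67), Aldoc (-0.41), Ndrg1 (-1.05) and Ctsd (-0.42). A further 103 lost their call with it. With only the 2 groups fitted, 22 named genes lost their call: Tnmd, Fmod, Cilp, Clec3b, Col1a1, Col14a1, Timp2, Cd163, Pla2g4a, Slco2a1, Lta4h, Tie1, Tek, Acta2, Tagln, Cspg4, Pdgfra, Ucma, Pkp1, Ddit3, Ctsd and Per1. With scaling by library size alone 11 did (Tnmd, Fmod, Timp4, Akr1b1, Cdkn1a, Cspg4, Igf2, Ucma, Atf4, Ddit3 and Per1), 15 others gained one, and none turned direction. The cause was not tested. The shallowest tendon, 7D 6 mg/kg replicate 4, resolves levels down to 0.227 CPM.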
